A study of Canis lupus familiaris with 12 samples.

Results

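Canine DUXC was set against luciferase in immortalized canine myoblasts, the cells that divide and then fuse into muscle fibres, here kept as a growing line. The comparison used 6 of the 12 libraries of the series, chosen by the insert that the labels name. In the 3 DUXC libraries the cells carried a doxycycline-inducible DUXC in the lentiviral vector pCW57.1 and were labelled as given doxycycline. In the 3 luciferase libraries the cells carried an inducible luciferase in the same vector, as the negative control. The labels name no sex, age or clone for the line, and they do not tell whether replicates came from separate cultures. All p-values below therefore rest on the spread among these samples alone, and that spread may be technical. By the written protocol, all 12 samples received doxycycline at 1 ug/ml over 24 h, but the luciferase samples carry a tag of no doxycycline. Expression of DUXC and doxycycline therefore cannot be told apart in the comparison with luciferase. The other groups of the series, 3 libraries each, carried the isoform DUXC-ALT or human DUX4 and had the doxycycline tag.

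DUXC belongs to the double homeobox family of transcription factors, whose proteins bind DNA through a pair of homeodomains. Its human relative DUX4 is normally active in the germline and the early embryo, where it turns on early embryonic genes and repeat elements derived from retroviruses. When DUX4 is expressed in skeletal muscle it is toxic, and this is the cause of facioscapulohumeral muscular dystrophy. The series asks how far canine DUXC does in dog muscle cells what human DUX4 does.

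Polyadenylated RNA had been counted over genes and over repeats. There were 17075 rows for genes and 717 for repeats, without row names in the tables used here. Rows are therefore cited by their number in the table, the rows of DUXC itself and of muscle marker genes could not be picked out, and the myoblast label could not be checked. Levels are given in CPM, the usual read count scaled by library depth, here on the gene total of each library. They are not divided by transcript length, so CPM compares 1 row between libraries and not transcript levels between rows. Gene totals were 18573006, 18518493 and 16681574 counts in the DUXC libraries, against 18666427, 17246783 and 20591041 in the luciferase libraries. Replicates of a group differed by 1.95 to 2.60 times the sampling noise (chi-square per degree of freedom), so none was a copy of another. The common biological coefficient of variation estimated by edgeR was 0.0312 for genes and 0.0553 for repeats. Small differences could thus pass the test.

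With DUXC, most genes differed from luciferase, the rises were larger than the falls, and more genes were read in every DUXC library than in any luciferase library. Of 13693 gene rows tested, 5325 rose (38.9% of those tested) and 5121 fell (37.4%), 76.3% in all, by the edgeR quasi-likelihood test at a Benjamini-Hochberg adjusted p of 0.05. The remaining 3247 rows did not pass, and 3382 rows were too low to test, none of them above a group mean of 1.08 CPM. Many changes were small, since 2072 of the rises and 3093 of the falls were of 1.5-fold or less. Rises of more than 2-fold numbered 2207 (16.1% of rows tested), against 681 falls of that size (4.97%). Among the same 13693 rows there were 1103 rises and 63 falls at more than 4-fold, and 739 rises and 16 falls at more than 8-fold. Of the 739, 166 had no luciferase read and 194 had 1 to 3. Such rows passed the filter on low counts only through their DUXC reads, so the count of 739 rests in part on that filter. The other 379 had more than 3 luciferase reads, as had 1847 of the 2207 rises of more than 2-fold. The falls were not split in this way by their DUXC reads. The median log2 fold change was 0.79 among the rises and -0.49 among the falls. TMM scaling, which sets the libraries on the assumption that most genes do not change, held the median of all tested rows at 0.0007, so that rises and falls came out nearly equal in number rests in part on it. On library totals without TMM, 5685 rose and 4701 fell. In RNA from whole cultures, fewer cells of a kind and less RNA per cell cannot be told apart.

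The groups were compared library by library as well. This uses the same libraries as the calls, so it describes the called rows and adds no separate support. Every DUXC library lay on the same side of every luciferase library for 10513 rows, 76.8% of those tested. That held for 5252 of the 5325 rises and for 4639 of the 5121 falls. The 482 falls with overlapping libraries outnumbered the 73 such rises.

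**Figure D1:**
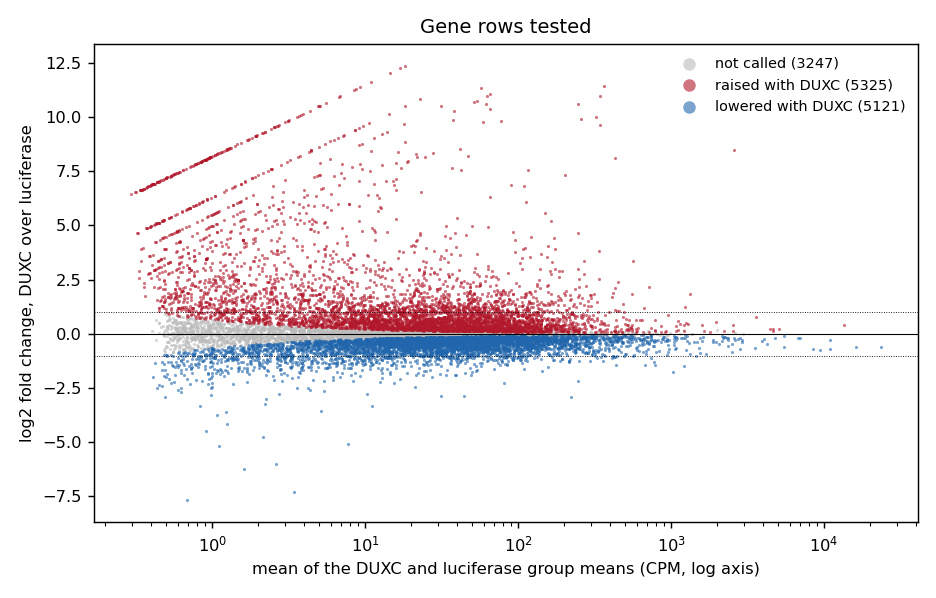
Log2 fold change of DUXC over luciferase (vertical axis) against the mean of both group means in CPM (log horizontal axis) for the 13693 gene rows tested; each point is a row, and dotted lines mark 2-fold. The 5325 raised rows (red) reach far above the 5121 lowered rows (blue), and the slanted lines of points at upper left are rows with 0 or a few luciferase reads.

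The direction of change moved with abundance. Among 999 tested rows with a mean under 1 CPM, 49.2% rose and 13.6% fell. Among 3694 rows between 1 and 10 CPM, the shares were 38.9% and 28.1%. Among 7088 rows between 10 and 100 CPM, 38.0% rose and 41.9% fell, and among 1813 rows between 100 and 1000 CPM, 37.4% rose and 50.1% fell. In the 99 rows above 1000 CPM, 25.3% rose and 67.7% fell. The median log2 fold change over these classes, low to high, was 0.72, 0.10, -0.04, -0.08 and -0.20. Low rows enter the test only where 1 group has enough reads, which limits how the shares of the lowest class can be read. Rises of more than 8-fold were found in every class, with 265 under 1 CPM, 332 between 1 and 10 CPM, 111 between 10 and 100 CPM, 30 between 100 and 1000 CPM and 1 above 1000 CPM.

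The most heavily read genes took a smaller part of each DUXC library. The 100 rows with most reads, taken anew in each library, held 27.9%, 27.7% and 27.8% of gene counts with DUXC, against 31.6%, 31.5% and 31.6% with luciferase. The groups did not overlap. The means were 27.8% ± 0.0885 with DUXC and 31.6% ± 0.0494 with luciferase (SD, n = 3 each), a difference of -3.76 percentage points. The exact 2-sided permutation test gave p = 0.1, the smallest that 3 against 3 libraries allow, and 0.1 after adjustment over the 4 single-value tests made. The 10 rows with most reads held 9.85% ± 0.0553 with DUXC and 12.7% ± 0.159 with luciferase (SD, n = 3 each).

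Every DUXC library had more genes detected. At 1 CPM or more there were 12909, 12853 and 12909 rows in the DUXC libraries, against 12157, 12110 and 12141 in the luciferase libraries. This was 754 rows more on average, and every DUXC library lay above every luciferase library (exact permutation p = 0.1, n = 3 each). With the threshold at 5 CPM or more the ratio of DUXC to luciferase was 1.04 in place of 1.06.

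**Figure D2:**
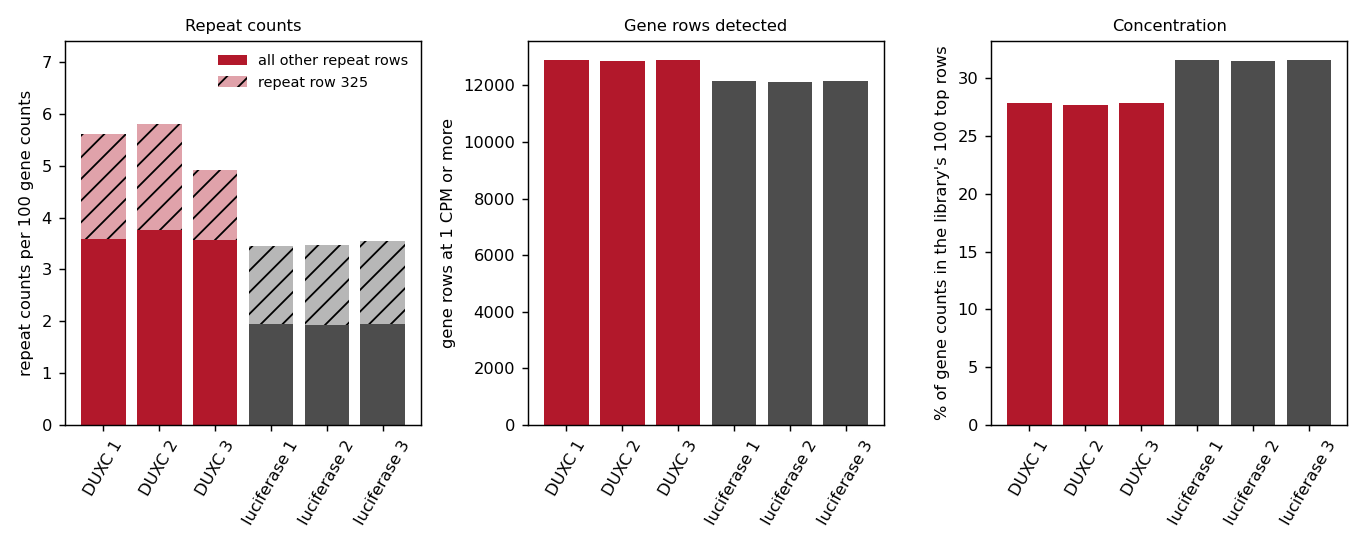
Bars give 1 value per library, with the DUXC libraries (red) left of the luciferase libraries (gray): repeat counts per 100 gene counts with repeat row 325 hatched, the number of gene rows at 1 CPM or more, and the percentage of gene counts in the 100 rows with most reads. DUXC libraries are higher in the first and second measures and lower in the third, with no overlap.

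Some genes had no read with luciferase and clear expression with DUXC. Gene row 16660 stood at 35.3, 35.9 and 38.2 CPM in the DUXC libraries, against 0 in all 3 luciferase libraries, at least 687-fold higher. Here and below, a row with no luciferase read is set against 3 counts over the luciferase group, or 0.0531 CPM, which covers counting error only. Gene row 11303 stood at 35.8, 34.2 and 31.7 CPM with DUXC, against 0 in every luciferase library, at least 638-fold higher. The DUXC replicates of both rows lay within a narrow range. Here and below, the rule for naming rises and falls took only rows without overlap between groups. Of all tested gene rows, 76.8% had no overlap.

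Gene rows 2069, 16957 and 5357 showed the same pattern at lower levels. Row 2069 averaged 29.1 ± 0.591 CPM with DUXC and 0 with luciferase (SD, n = 3 each), at least 548-fold higher. Row 16957 averaged 21.8 ± 1.91 CPM with DUXC and 0 with luciferase, at least 411-fold higher, and row 5357 averaged 18.4 ± 1.14 CPM with DUXC and 0 with luciferase, at least 347-fold higher. Of 575 rows with no luciferase read, 166 passed the filter on low counts, and a row could pass it only through its DUXC reads. All 166 were called as rises, so their p-values add no support and are not given. Rows at 0 in luciferase and at 1 CPM or more in every DUXC library numbered 104, with group means from 1.17 to 36.5 CPM, and 12 of them averaged above 10 CPM. The reverse was seen in 1 row, number 8676.

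Large rises were not confined to genes that were silent in luciferase cells. Of the 739 rises of more than 8-fold, 379 had more than 3 luciferase reads, 194 had 1 to 3 and 166 had none. At more than 32-fold there were 425 rises by fitted values, of which 116 had more than 3 luciferase reads. Fitted values of rows with no luciferase read depend on the small count that edgeR adds. With those rows set at their lower bound, the rises of more than 32-fold numbered 345. Gene row 7814 was the largest of the rises with luciferase reads to be named, at 718, 718 and 747 CPM in the DUXC libraries, against 0.268, 0.174 and 0.291 CPM in the luciferase libraries. The fitted log2 fold change was 11.43 ± 0.08 (SE). With 5, 3 and 6 luciferase reads, this row too passed the filter only through its DUXC reads, so its p-value is not given.

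Measured in reads gained, the response was broad. The summed gain of all raised rows was 153506 CPM, and the 285 rows with the largest gains made up 50% of it. The 6 largest gains gave 9.55% of the total. These shares describe rows chosen on the same libraries. Raised rows as a whole held 39.3% ± 0.283 of gene counts with DUXC and 24.0% ± 0.0875 with luciferase (SD, n = 3 each). The rows raised by more than 8-fold held 2.63% ± 0.00634 with DUXC and 0.0805% ± 0.000896 with luciferase, so most of the gained reads lay in rows that rose by 8-fold or less.

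Gene row 15472 gained more reads than any other gene row. It stood at 5148, 5078 and 5083 CPM in the DUXC libraries, against 13.8, 14.7 and 12.6 CPM in the luciferase libraries. The log2 fold change was 8.50 ± 0.04 (SE; adjusted p = 1.28e-68, edgeR), a ratio of means of 373. It was the single row above 1000 CPM that rose by more than 8-fold.

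The other large gains came from genes that were already heavily read in luciferase cells. Gene row 305 stood at 2104, 2060 and 2105 CPM with DUXC, against 556, 569 and 576 CPM with luciferase, a log2 fold change of 1.83 ± 0.03 (SE; adjusted p = 2.51e-46, edgeR). Gene row 6282 averaged 1749.6 ± 48.2 CPM with DUXC and 725 ± 19.0 CPM in luciferase cells (SD, n = 3 each), a log2 fold change of 1.22 ± 0.03. Neither overlapped between groups, as the naming rule required.

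Gene rows 12933 and 12934, next to each other in the table, rose less in proportion. Row 12933 averaged 15604 ± 411 CPM with DUXC and 11559 ± 185 CPM in luciferase cells (SD, n = 3 each), a log2 fold change of 0.39 ± 0.02. Row 12934 averaged 5542 ± 159 CPM with DUXC and 4537 ± 85.1 CPM with luciferase, a log2 fold change of 0.24 ± 0.03. Whether neighbouring rows share reads cannot be told without names. Gene row 8688 stood at 4484, 4518 and 4687 CPM with DUXC, against 2313, 2850 and 2611 CPM with luciferase. Its luciferase libraries were the more spread, and its adjusted p of 7.30e-04 by edgeR was the weakest among the named rises.

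**Figure D3:**
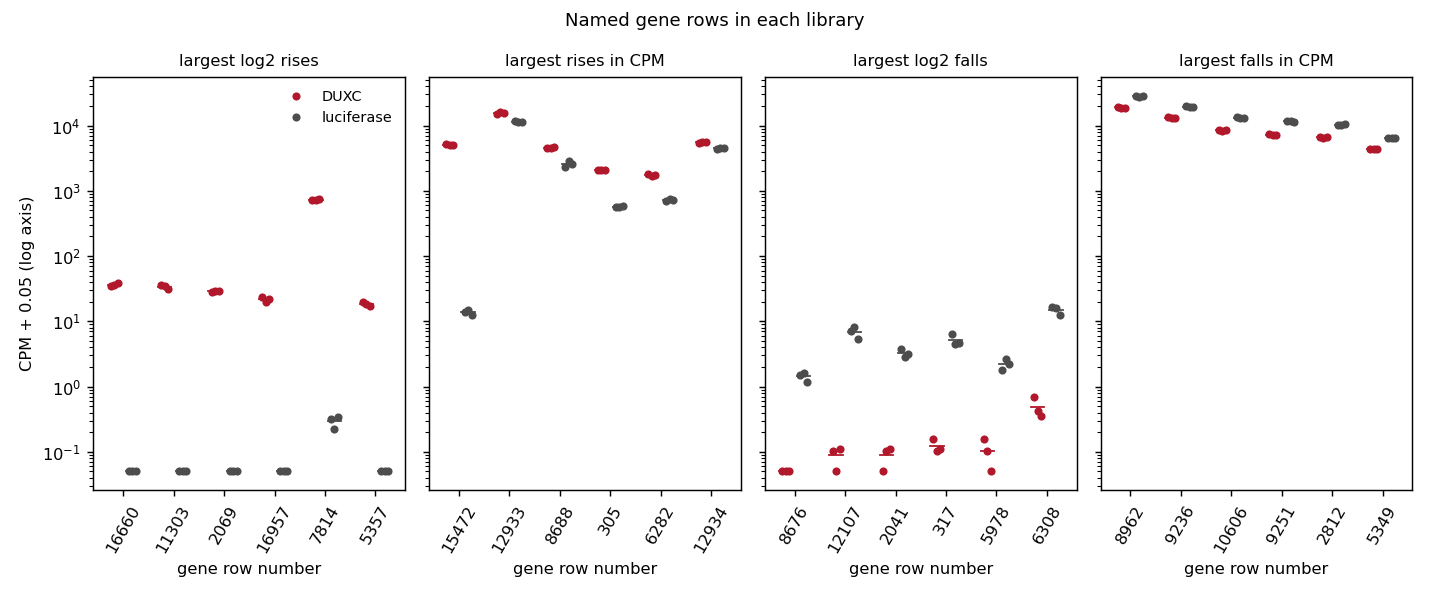
CPM plus 0.05 (log axis) of the named gene rows in each library, with DUXC (red) left of luciferase (gray) for each row; points are libraries and short lines are group means. In all 4 panels the 3 DUXC libraries of a row lie on 1 side of its 3 luciferase libraries, as the naming rule required. The points at 0.05 are libraries with 0 reads.

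Falls were mostly moderate, and 4440 of the 5121 were of 2-fold or less. The summed loss of all lowered rows was 158008 CPM, of which the 6 largest losses made up 19.2% and 127 rows made up 50%. Losses were thus held by fewer rows than gains. All 6 largest losses came from heavily read rows, with log2 fold changes between -0.59 and -0.75.

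Gene row 8962, the most heavily read row of luciferase cells, stood at 19096, 18929.7 and 18900.4 CPM in the DUXC libraries, against 28444, 27204 and 28537 CPM in the luciferase libraries. The log2 fold change was -0.61 ± 0.02 (SE; adjusted p = 2.40e-28, edgeR). Gene row 9236 averaged 13082 ± 220.4 CPM with DUXC and 19255 ± 355 CPM in luciferase cells (SD, n = 3 each), a log2 fold change of -0.60 ± 0.02. Both groups of libraries were tight and well apart. Gene row 10606 averaged 8532 ± 161 CPM with DUXC and 13316 ± 110.4 CPM with luciferase, and gene row 9251 averaged 7205 ± 133 CPM with DUXC and 11696 ± 241 CPM with luciferase, with log2 fold changes of -0.69 ± 0.02 and -0.75 ± 0.03.

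Gene rows 2812 and 5349 completed the 6 largest losses. Row 2812 averaged 6594 ± 152 CPM with DUXC and 10286 ± 177 CPM in luciferase cells (SD, n = 3 each), and row 5349 averaged 4433 ± 14.6 CPM with DUXC and 6479 ± 77.6 CPM with luciferase. Gene row 1325, next after rows 8962, 9236 and 10606 in luciferase reads, fell less, at 9974 ± 199.8 CPM with DUXC and 11826 ± 392 CPM with luciferase, a log2 fold change of -0.29 ± 0.03 (SE; adjusted p = 1.27e-14, edgeR). Of the 100 rows with the highest mean over both groups, 67 fell and 25 rose, against the 37.4% and 38.9% of all rows tested. Of those 100, 3 fell and 3 rose by more than 2-fold, against 4.97% and 16.1% of all rows tested.

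The steepest falls were in genes with few reads. Gene row 8676 had 0 reads in every DUXC library, against 27, 27 and 23 reads in the luciferase libraries, at least 24.7-fold lower. Gene row 12107 had 1, 0 and 1 reads with DUXC, against 133, 138 and 110 reads with luciferase. These 2 DUXC reads against 381 luciferase reads gave a ratio of 0.00552, with an exact interval at 95% of 0.000666 to 0.0201 for counting error. Both rows were close to silent in every DUXC library.

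Gene rows 2041, 317, 5978 and 6308 followed. Row 2041 had 2 DUXC reads against 181 luciferase reads, a ratio of 0.0116 with an interval of 0.00140 to 0.0426, and row 5978 had 3 against 122, a ratio of 0.0258 with an interval of 0.00526 to 0.0773. Row 317 averaged 0.0739 ± 0.0294 CPM with DUXC and 5.12 ± 1.00 CPM in luciferase cells (SD, n = 3 each). Row 6308 stood at 0.646, 0.378 and 0.300 CPM with DUXC, against 16.7, 15.8 and 12.2 CPM with luciferase. Its log2 fold change was -5.08 ± 0.20 (SE). It passed the filter on low counts only through its luciferase reads, so its p-value is not given. None of these rows overlapped between groups, as the naming rule required.

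The named rows were then read in the libraries with DUXC-ALT and DUX4, which carry the same doxycycline tag as DUXC. The tables of the 3 factors were joined through their luciferase counts, which recur in the same order in every table for the 14736 gene rows with at least 7 luciferase reads. The rows with no luciferase read could not be joined. Of 13148 joined gene rows tested between DUXC and DUXC-ALT, 38.2% were higher and 38.6% lower in the DUXC libraries. Between DUXC and DUX4, 33.1% of 13324 were higher and 33% lower in the DUXC libraries.

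Among the named rises that could be joined, rows 7814 and 15472 had the largest fold changes. Both were near or below the luciferase level with DUXC-ALT and rose less with DUX4. They were chosen on high values in the same DUXC libraries, which favours DUXC in these comparisons, and rises that were not named were not read here. Gene row 7814 averaged 728 CPM with DUXC, stood at 0, 0.116 and 0.268 CPM in the DUXC-ALT libraries, and at 98.4, 89.3 and 91.3 CPM in the DUX4 libraries. It has the same luciferase counts as another row, so its match across tables rests on row order as well. Gene row 15472 averaged 5103 CPM with DUXC, stood at 11.1, 8.67 and 10.3 CPM in the DUXC-ALT libraries, and at 1927, 1975 and 1909.9 CPM in the DUX4 libraries. Directly tested, row 15472 was higher with DUXC by a log2 difference of 9.01 ± 0.04 over DUXC-ALT (SE; adjusted p = 3.14e-80, edgeR) and of 1.40 ± 0.02 over DUX4 (adjusted p = 1.94e-53, edgeR). The doxycycline label does not differ in these tests. Rows 305 and 6282 followed the same order, with DUXC above DUX4 and DUX4 above DUXC-ALT. Row 305 stood at 2089 ± 25.6 CPM with DUXC, 514 ± 1.31 CPM with DUXC-ALT and 1146 ± 26.4 CPM with DUX4.

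The other large gains were shared with DUXC-ALT to a greater degree. Row 12933 averaged 15604 ± 411 CPM with DUXC, 14165 ± 200.2 CPM with DUXC-ALT and 18737 ± 304 CPM with DUX4 (SD, n = 3 each). The log2 difference was 0.16 ± 0.02 over DUXC-ALT and -0.26 ± 0.02 over DUX4 (SE). Row 8688 averaged 4563 ± 108 CPM with DUXC, 3847 ± 43.0 CPM with DUXC-ALT and 2129 ± 43.8 CPM with DUX4.

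The steepest falls had lower means with each of the 3 factors than with luciferase. The rows were chosen on their fall between these same DUXC and luciferase libraries, and the luciferase libraries are the control of every factor. A lower mean with the other factors is thus partly built in. Only luciferase carries the tag of no doxycycline, so factor and doxycycline cannot be told apart here. Row 8676 stood at 0 CPM with DUXC, 0.0167 CPM with DUXC-ALT and 0.0210 CPM with DUX4, against 1.38 CPM with luciferase. Row 12107 stood at 0.0379 CPM with DUXC, 0.0371 CPM with DUXC-ALT and 0.445 CPM with DUX4, against 6.82 CPM with luciferase. Row 6308 stood at 0.441 ± 0.182 CPM with DUXC, 0.249 ± 0.126 CPM with DUXC-ALT and 2.85 ± 0.263 CPM with DUX4 (SD, n = 3 each). Its fitted log2 difference of DUXC over DUX4 was -2.65 ± 0.29 (SE). The row passed the filter of that test only through its DUX4 reads, so no p-value is given. The other direct tests of these 6 rows were not made, because the rows were too low in both groups to pass the filter. In all 6 rows the DUX4 mean lay between those of DUXC and luciferase. Between DUXC and DUX4 that order was fitted in row 6308 only. In rows 8676, 2041, 317 and 5978 it rests on a few reads and is not settled. Their DUXC means were 0, 0.0380, 0.0739 and 0.0539 CPM, and their DUX4 means were 0.0210, 0.0606, 0.0821 and 0.155 CPM.

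Among the large losses the factors differed. Row 8962 averaged 18975 ± 106 CPM with DUXC, 19440.4 ± 147 CPM with DUXC-ALT and 10938 ± 133 CPM with DUX4 (SD, n = 3 each). Its log2 difference over DUXC-ALT was -0.01 ± 0.02 (SE; adjusted p = 0.625, edgeR), and over DUX4 it was 0.80 ± 0.02 (adjusted p = 4.09e-43, edgeR). Row 2812 averaged 6594 ± 152 CPM with DUXC, 11064 ± 55.2 CPM with DUXC-ALT and 6988 ± 1.74 CPM with DUX4, against 10286 ± 177 CPM with luciferase. Its DUXC-ALT mean was thus above that of luciferase. Row 2812 was lower with DUXC than with DUXC-ALT by a log2 difference of -0.72 ± 0.02 (SE; adjusted p = 4.72e-42, edgeR). Row 9236 averaged 13082 ± 220.4 CPM with DUXC, 10679 ± 78.5 CPM with DUXC-ALT and 16941 ± 99.6 CPM with DUX4.

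**Figure D4:**
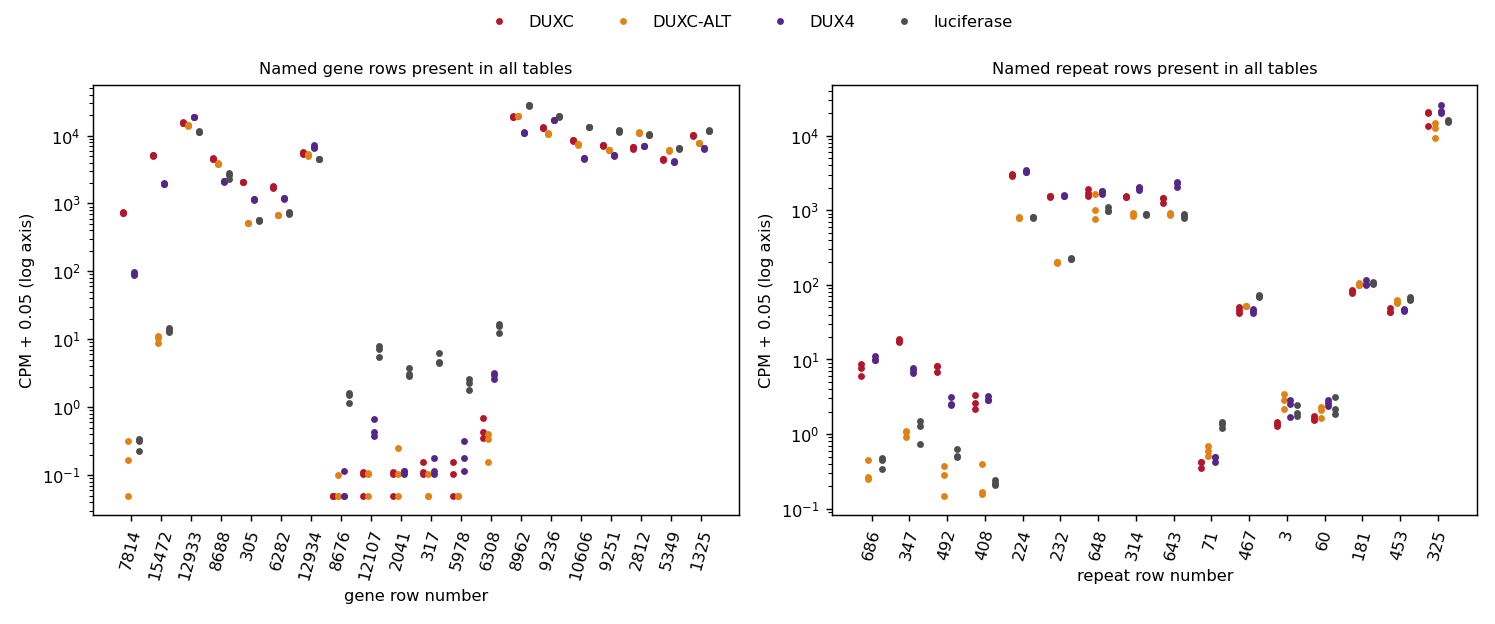
CPM plus 0.05 (log axis) of the named gene rows (left) and repeat rows (right) that could be joined across tables, with DUXC, DUXC-ALT, DUX4 and luciferase from left to right for each row and 1 point per library. Gene rows 7814 and 15472 are high with DUXC and DUX4 and low with DUXC-ALT and luciferase, whereas the 6 gene rows from 8676 to 6308 have lower means with each of the 3 factors than with luciferase. All rows were chosen on the DUXC and luciferase libraries shown.

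Most repeats rose with DUXC relative to genes. The repeat table counts reads over annotated interspersed and other repeats of the dog genome, with no class or family name per row. Repeat counts per 100 gene counts were 5.62, 5.80 and 4.91 in the DUXC libraries, against 3.46, 3.47 and 3.54 in the luciferase libraries. All DUXC libraries lay above all luciferase libraries, and the third DUXC library lay below the other DUXC libraries (exact permutation p = 0.1, n = 3 each).

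That spread came from a single row. Repeat row 325, the most heavily read, stood at 2.04, 2.05 and 1.35 per 100 gene counts in the DUXC libraries, against 1.52, 1.55 and 1.60 in the luciferase libraries. Its groups overlapped, and its log2 fold change of 0.17 ± 0.19 did not pass the test (SE; adjusted p = 0.429, edgeR). Without DUXC replicate 3 it was 0.35 ± 0.04 (adjusted p = 3.66e-09, edgeR), so that library decides the call. It made up 36.2%, 35.3% and 27.5% of repeat counts with DUXC, against 43.8%, 44.7% and 45.1% with luciferase. All other repeat rows together stood at 3.58, 3.76 and 3.56 per 100 gene counts with DUXC, against 1.94, 1.92 and 1.94 with luciferase, with no overlap and a ratio of means of 1.88.

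Row by row the rise was general. Library sizes for repeats were those of the gene counts, so that a shift of repeats as a whole is kept. Of 605 repeat rows tested, 500 rose (82.6%) and 17 fell (2.81%) by the edgeR test at an adjusted p of 0.05. The median log2 fold change of repeat rows was 0.80, against 0.0007 for gene rows, with quartiles of 0.46 and 1.31. More than 2-fold rises numbered 241 (39.8%) and falls 1 (0.165%), while 51 rows rose by more than 4-fold and 18 by more than 8-fold. DUXC replicates 1, 2 and 3 lay above all luciferase libraries in 533, 546 and 531 of the 605 rows, and the groups did not overlap in 527 (87.1%). With scaling on the repeat counts themselves, which removes a shared shift, 205 rows rose and 172 fell, and rises made up 54.4% of calls in place of 96.7%. The direction of most repeat rows is therefore relative to genes.

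**Figure D5:**
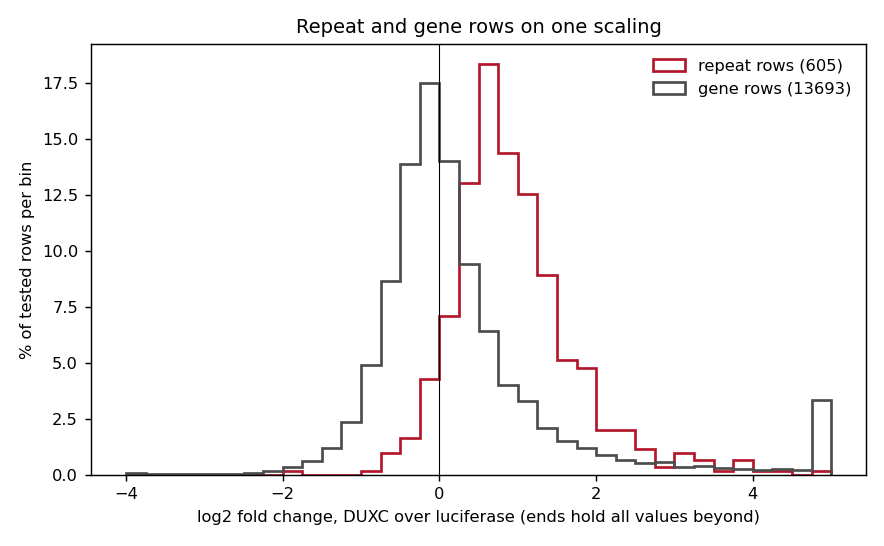
Distribution of the log2 fold change of DUXC over luciferase for 605 repeat rows (red) and 13693 gene rows (gray) on the scaling of the gene counts, as the percentage of tested rows per bin of 0.25; the end bins hold all values beyond. The repeat rows centre at 0.80 and the gene rows near 0, and gene rows have the longer upper tail.

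In repeats the share of rows called as raised was higher in the more heavily read classes. Rows with fewer reads are called less readily at the same fold change, which limits how the shares below can be read. Among 61 repeat rows under 1 CPM 57.4% rose, among 286 rows from 1 to 10 CPM 80.4%, among 202 rows from 10 to 100 CPM 89.1%, and among 56 rows above 100 CPM 98.2%. The median log2 fold change was lower in the more heavily read classes, at 1.04, 0.90, 0.71 and 0.70, as it was for genes. Of the 20 repeat rows with the highest mean, 19 rose and none fell, against 82.6% and 2.81% of all repeat rows tested.

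A few repeat rows were nearly silent with luciferase. Repeat row 235 stood at 47.8, 47.0 and 47.5 CPM in the DUXC libraries, against 0.107, 0.0580 and 0 CPM in the luciferase libraries. Its 3 luciferase reads against 2552 DUXC reads gave a ratio of 894, with an exact interval of 306 to 4337 for counting error. It was the single repeat row raised by more than 32-fold and could not be joined to the other tables.

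Among repeat rows with a mean of at least 20 counts in the DUXC libraries, the next largest proportional rises were of 15.0 to 19.8 times between group means. Repeat row 686 stood at 6.03, 8.75 and 7.55 CPM with DUXC, against 0.429, 0.406 and 0.291 CPM with luciferase. Its log2 fold change was 4.25 ± 0.24 (SE). It passed the filter on low counts only through its DUXC reads, so its p-value is not given. Repeat row 347 stood at 17.4, 17.2 and 18.7 CPM with DUXC, against 1.45, 0.696 and 1.21 CPM with luciferase. Repeat rows 492 and 408 averaged 7.70 ± 0.806 and 2.64 ± 0.606 CPM with DUXC, against 0.497 ± 0.0813 and 0.176 ± 0.0169 CPM in luciferase cells (SD, n = 3 each). None of the 4 overlapped between groups, as the naming rule required (87.1% of all tested repeat rows did not overlap).

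In these rows DUXC-ALT stayed at a low level and DUX4 was on either side of DUXC. These rows too were chosen on high values in the same DUXC libraries, which favours DUXC. Row 347 averaged 17.8 ± 0.797 CPM with DUXC, 0.978 ± 0.0976 CPM with DUXC-ALT and 7.14 ± 0.592 CPM with DUX4 (SD, n = 3 each), and DUXC exceeded DUX4 by a log2 difference of 1.31 ± 0.10 (SE; adjusted p = 1.50e-20, edgeR). Row 492 was also higher with DUXC than with DUX4, by 1.55 ± 0.15. Row 686 was lower with DUXC than with DUX4, by a log2 difference of -0.44 ± 0.11 (SE; adjusted p = 4.69e-04, edgeR). Row 408, which shares its luciferase counts with another row, differed by -0.13 ± 0.18, which did not pass (adjusted p = 0.557, edgeR). In all, 7.43% of 619 joined repeat rows tested were higher in DUXC than in DUX4 libraries and 54.3% were lower, while 85.1% of 598 were higher in DUXC than in DUXC-ALT libraries and 2.17% were lower.

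The largest gains in repeat reads came from heavily read rows. The summed gain of the raised repeat rows was 17049.5 CPM, of which the 5 largest gains gave 31.7% and 17 rows gave 50%. Repeat row 224 stood at 2911, 3103 and 2997 CPM with DUXC, against 803, 786 and 819 CPM with luciferase, a log2 fold change of 1.86 ± 0.04 (SE; adjusted p = 3.22e-15, edgeR). Repeat row 232 stood at 1495, 1561 and 1560.3 CPM with DUXC, against 226, 221 and 224 CPM with luciferase, a log2 fold change of 2.74 ± 0.04 (adjusted p = 1.30e-16, edgeR). Both rows had tight replicates, far apart between groups, and both kept their rise under scaling on the repeats, at 1.07 and 1.95.

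Rows 648, 314 and 643, next in reads after row 325 in luciferase cells, rose by less. Row 314 averaged 1515 ± 28.2 CPM with DUXC and 872 ± 10.9 CPM in luciferase cells (SD, n = 3 each), a log2 fold change of 0.75 ± 0.04. Row 648 averaged 1724 ± 199.7 CPM with DUXC and 1020.2 ± 85.3 CPM with luciferase, and row 643 averaged 1393 ± 131 CPM with DUXC and 844 ± 61.8 CPM with luciferase. These 3 rows moved close to the median of all repeats, and scaling on the repeats put them at -0.03, -0.08 and -0.11, none past the test. Row 232 averaged 1539 ± 37.9 CPM with DUXC and 1559 ± 35.0 CPM with DUX4 (SD, n = 3 each), a log2 difference of -0.01 ± 0.05 that did not pass (SE; adjusted p = 0.822, edgeR), and it was higher than with DUXC-ALT by 2.97 ± 0.05.

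Of the 17 repeat falls, 1 was of more than 2-fold. Repeat row 71 had 7, 7 and 5 reads in the DUXC libraries, against 26, 23 and 24 reads in the luciferase libraries. Its log2 fold change was -1.90 ± 0.29 (SE). The row passed the filter on low counts only through its luciferase reads, so its p-value is not given. It averaged 0.352 ± 0.0449 CPM with DUXC, 0.549 ± 0.0947 CPM with DUXC-ALT and 0.422 ± 0.0377 CPM with DUX4, against 1.30 ± 0.118 CPM in luciferase cells (SD, n = 3 each). The luciferase mean was above those of all 3 factors, but the row was chosen on these same luciferase libraries. Repeat row 26, picked out after its values were seen because it came next in size, averaged 0.393 CPM with DUXC and 0.754 CPM with luciferase. Its log2 fold change was -0.996 ± 0.345 (SE). Row 26 was low with DUXC as well, and its p-value is not given either.

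The named falls with more reads were of less than 2-fold. Repeat row 467 stood at 41.3, 50.4 and 45.7 CPM with DUXC, against 68.3, 70.3 and 73.8 CPM with luciferase, a log2 fold change of -0.67 ± 0.07 (SE; adjusted p = 5.41e-07, edgeR). Repeat row 453 averaged 45.5 ± 2.93 CPM with DUXC and 64.9 ± 2.99 CPM with luciferase, and repeat row 181 averaged 82.3 ± 3.05 CPM with DUXC and 106 ± 3.40 CPM in luciferase cells (SD, n = 3 each). None of the 3 overlapped between groups, as the naming rule required. Repeat rows 3 and 60 had 71 and 85 reads over the DUXC libraries, against 113 and 134 over the luciferase libraries, with log2 fold changes of -0.64 ± 0.20 and -0.63 ± 0.22. Their calls were lost without luciferase replicate 3, at adjusted p = 0.0630, edgeR and 0.148, and with DESeq2, at 0.0616 and 0.0591.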

How the data were processed

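Raw counts per gene row and per repeat row were used as deposited by the authors. Tools named, without their roles, in the submitters' processing notes are TopHat2 2.1.0, Bowtie2 2.2.6, CASAVA and DESeq2, with canFam3 as the build. No source used here names the counting tool, or says how it treated strand and reads that match several places, so reads of near-identical or overlapping rows may be split or shared. The smallest row total was 7 counts in both tables. The authors' normalized tables were not used here.

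The tests on the 6 libraries were run in R 4.3.3 with edgeR 4.0.16 (TMM, filterByExpr, robust quasi-likelihood fit, Benjamini-Hochberg at 0.05). Repeats took effective library sizes from gene counts. SE is the log2 fold change over the root of the F value. Single values per library were compared with exact permutation tests over 20 regroupings. Intervals and floors cover counting error only. Alternatives were DESeq2 1.42.0, other scalings and filters, leaving out each library and a replicate block.

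Named gene rows were the 6 largest log2 rises and falls (at least 1 CPM in the higher group), the 6 largest CPM rises and falls, and the 4 rows with most luciferase reads. Named repeat rows were the 5 largest log2 and CPM rises, the 4 largest log2 falls and 3 largest CPM falls, and the 4 with most luciferase reads; log2 rows needed a mean of 20 counts. Rises and falls had to pass the test without overlap. Rows and rules were chosen with earlier results of these data known.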

Additional observations from a re-analysis of the deposited data

How the results depend on the processing

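Leaving out 1 library at a time gave 5241 to 5338 gene rises and 4909 to 5030 falls, 2263 to 2378 rises and 700 to 745 falls of more than 2-fold, and 484 to 510 repeat rises and 13 to 16 falls. Other scalings, filters and tools gave 5053 to 6102 gene rises and 4574 to 5422 falls. Tested against 2-fold itself (glmTreat), 1771 genes rose and 356 fell. Repeats scaled on their own counts gave 205 rises and 172 falls, against 500 and 17, and repeat row 314 turned to -0.034, row 648 to -0.078, row 643 to -0.11 and row 325 to -0.62 (log2 fold change; adjusted p = 0.00225 for row 325, edgeR). That scaling removes a shared shift by construction. DESeq2 with gene size factors gave 9 repeat falls in place of 17; the cause was not tested. The named gene rows kept direction and call in all 300 checks. Repeat rows kept theirs in 178 of the checks, the exceptions being the rows 314, 325, 643, 648, 3 and 60.

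The ratio of repeats per 100 gene counts was 1.51 to 1.64 with 1 library left out and 1.51 with TMM sizes, and without repeat row 325 it was 1.85 to 1.90 and 1.82. With 5 libraries the permutation p was 0.2, the smallest possible. Same-numbered DUXC and luciferase libraries did not deviate together (correlations of -0.10, -0.22 and -0.10). With 3 libraries a group this cannot settle whether the numbers pair them. A replicate block gave 5210 gene rises and 5001 falls, and 492 repeat rises and 13 falls. Depth limits rows under about 1 CPM, where 3 counts over a group are 0.0531 CPM with luciferase and 0.0558 CPM with DUXC.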
